A study of Homo sapiens with 40 samples.

Results

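The 32 genes described here make or move cholesterol and fatty acids, and most are known targets or regulators of the sterol regulatory element-binding proteins (SREBPs). They were chosen by symbol from knowledge of the pathway, and each symbol was matched through its Ensembl identifier to 1 row of the deposited count table, so they are 32 of 19962 genes. The choice started from 1 member, STARD4, which an earlier look at these data had found lower with both depletions of IGF2BP3 (for Dox, relative to the control line), and the question was whether the other members followed it. The cells are RKO, an established human colorectal carcinoma line, carrying GFP and a Cas9 that doxycycline induces. Lentiviral vectors with a pair of guide RNAs and the blue fluorescent protein eBFP2 turned it into 3 lines, and each was sorted for eBFP2, so a line is a pool of cells and not 1 clone. The guides target IGF2BP2 (sgIGF2BP2), IGF2BP3 (sgIGF2BP3) or the non-coding control locus AAVS1 (sgAAVS1). IGF2BP2 and IGF2BP3 are proteins that bind many messenger RNAs.

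There were 10 groups of 4 libraries, with 1 well of cells behind each library. The sgAAVS1 line received DMSO or doxycycline (Dox). The sgIGF2BP2 line received DMSO, Dox, a non-targeting small interfering RNA (siControl) or a pool of siRNAs against IGF2BP2 (siIGF2BP2). The sgIGF2BP3 line received DMSO, Dox, siControl or a pool against IGF2BP3 (siIGF2BP3). Dox was given at 250 ng/mL for 72 hours and siRNA at 75 nM for 48 hours, and 250 µM 4-thiouridine was added to all groups for 2 hours. The values count every read of a gene, whether its RNA was made before or during that labelling. In such bulk RNA, fewer cells expressing a gene and less RNA per cell cannot be told apart.

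SREBPs are made as membrane proteins of the endoplasmic reticulum. SREBF2 encodes SREBP2, which mainly drives cholesterol genes, and SREBF1 encodes SREBP1, which mainly drives fatty acid genes. When sterols are low, SCAP carries the SREBPs to the Golgi, where proteases release the part that enters the nucleus and switches on target genes. When sterols are high, the INSIG proteins hold SCAP back. INSIG1 is itself an SREBP target, as are most enzymes of the mevalonate and sterol arms, so their messenger RNAs are known to move together when sterol levels change. STARD4 (chr5:111496033-111512590 on the minus strand, GRCh38) is a soluble protein that carries cholesterol between membranes and is a known SREBP2 target.

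Promoter sequences are shown because SREBPs bind there, next to NF-Y and Sp1. RefSeq promoters (GRCh38.p14) of 300 bases, from 250 before the start to 50 after it, were matched by symbol for 29 of the 32 genes. The motifs searched, on both strands, were TCACNCCAC (sterol regulatory element), CCAAT (NF-Y box), CACGTG (E-box) and GGGCGG (Sp1 box). No motif contains another, but matches can overlap. The 150 bases just before the RefSeq start are shown for 4 members, 5′ to 3′ on the gene's strand, with matches on either strand in capitals. SREBF2 holds the only sterol regulatory element found among the members, INSIG1 and MSMO1 had the largest falls with siIGF2BP2, and STARD4 prompted the choice.
SREBF2 (chr22:41832955-41833104, plus strand): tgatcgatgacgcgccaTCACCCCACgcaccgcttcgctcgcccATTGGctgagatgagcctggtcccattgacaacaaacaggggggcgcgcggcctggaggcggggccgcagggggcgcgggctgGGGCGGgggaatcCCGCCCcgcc
INSIG1 (chr7:155297728-155297877, plus strand): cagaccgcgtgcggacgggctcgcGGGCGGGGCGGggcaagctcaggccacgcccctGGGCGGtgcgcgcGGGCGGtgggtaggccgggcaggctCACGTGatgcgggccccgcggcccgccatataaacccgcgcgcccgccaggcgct
MSMO1 (chr4:165327519-165327668, plus strand): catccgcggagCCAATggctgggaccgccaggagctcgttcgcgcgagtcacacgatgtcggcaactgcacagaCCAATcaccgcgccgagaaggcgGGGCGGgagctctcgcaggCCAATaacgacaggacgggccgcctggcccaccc
STARD4 (chr5:111512536-111512685, minus strand): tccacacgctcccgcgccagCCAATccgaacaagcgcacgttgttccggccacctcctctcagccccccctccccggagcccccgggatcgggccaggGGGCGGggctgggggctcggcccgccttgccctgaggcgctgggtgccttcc
In SREBF2 the sterol element begins 133 bases before the start, and an NF-Y box on the other strand follows it. Within the 150 bases shown, INSIG1 has 4 Sp1 boxes, the first 2 of which overlap, and an E-box. Within them MSMO1 has 3 NF-Y boxes and 1 Sp1 box, and STARD4 has 1 NF-Y box and 1 Sp1 box. Further upstream, an NF-Y box begins 170 bases before the start in INSIG1, 185 in MSMO1 and 161 in STARD4.

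Over the whole 300 bases, the sterol element was found in 1 of 29 (3.45%), against 1.39% of all genes with a promoter and 1.45% of the genes tested here. An NF-Y box was found in 20 of 29 (69.0%), against 39.7% of all genes with a promoter and 43.6% of the genes tested here. An Sp1 box was found in 27 of 29 (93.1%), against 48.3% of all genes with a promoter and 78.7% of the genes tested here. An E-box was found in 4 of 29 (13.8%), against 8.77% of all genes with a promoter and 12.9% of the genes tested here. These shares describe letters in a window, and binding was not measured.

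Total counts ranged from 10018181 to 24822807 per library, with a median of 13468792. The labels were checked on the targeted genes, in CPM (counts scaled to an equal library total; mean ± SD, n = 4). IGF2BP3 fell from 180.2 ± 4.09 to 56.2 ± 3.62 CPM with Dox in the sgIGF2BP3 line and from 169.8 ± 4.78 to 24.8 ± 1.56 CPM with siIGF2BP3. IGF2BP2 fell from 85.3 ± 1.58 to 33.9 ± 3.5 CPM with Dox in the sgIGF2BP2 line and from 108 ± 4.1 to 30.2 ± 1.08 CPM with siIGF2BP2. IGF2BP3 also fell with Dox in the sgIGF2BP2 line, from 179 ± 9.22 to 151 ± 4.24 CPM (log2 fold change -0.25, adjusted p = 2.93e-06). Its Dox effect there was lower than in the sgAAVS1 line (log2 difference -0.29, adjusted p = 0.000372), and the part of this fall in the Dox results of that line was not tested. Of 5 epithelial markers, EPCAM, KRT8 and KRT18 were above 1 CPM and KRT19 and CDH1 were at most 0.305 CPM. Of 6 intestinal markers, CDX2 was at 15.9 to 22.9 CPM, VIL1 and CDH17 were at most 0.176 CPM, and CDX1, KRT20 and LGR5 were at 0. Lists of hepatocyte, adipocyte and fibroblast markers each summed to at most 1.1 CPM in any library, and of the leukocyte markers only CD68 passed 1 CPM. The median absolute deviation of a library from its group, on the log2 scale, was highest in siIGF2BP2 replicate 3 (0.0896) and next in sgIGF2BP2 Dox replicate 2 (0.074).

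Of the 32 genes, 31 were abundant enough to test. The exception was FADS1, the delta-5 fatty acid desaturase, with 11 counts over all 40 libraries and at most 3 in any one. FADS1 and FADS2 share exon bases on opposite strands, and whether the counting used strand is not given in the sources used here. For the same reason the counts of SREBF1, ACAT2, MVK, NPC1 and NPC2 are uncertain, since each shares exon bases with an opposite-strand gene. CYP51A1, TM7SF2 and FADS2 share bases with a gene on the same strand. Named pseudogenes could take or lend reads for FDPS, which has 8, and for CYP51A1, HSD17B7, SCD and FADS2.

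Per length of exon, the highest level was that of ACLY, which makes cytosolic acetyl-CoA, with a median of 72.9 RPKM (reads scaled by exon length and library total) over the 40 libraries. SCD, the stearoyl-CoA desaturase, followed at 64.2 RPKM, FDPS, which makes farnesyl diphosphate, at 37.4 and SREBF2 at 27.7. PMVK, SCAP and SQLE lay close together at 25.5, 25.4 and 24.3 RPKM. STARD4 stood at place 26 with 3.84 RPKM, and INSIG2, CYP51A1 and HSD17B7 were the lowest tested members at 1.87, 1.85 and 1.69 RPKM. In CPM, the tested member with the widest relative range over the libraries was NPC2 (24.2 to 65.97 CPM), then INSIG1 (24.6 to 55.8 CPM).

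With siIGF2BP3, STARD4 and 4 other members were lower than with siControl, and none was higher. With 1 pool per gene, loss of the target and any other effect of the pool cannot be told apart. STARD4 was at 26.3, 23.6, 24.9 and 24.6 CPM in the siControl libraries of the sgIGF2BP3 line and at 14.5, 14.8, 15.1 and 16.4 CPM with siIGF2BP3. The groups did not overlap, and the siIGF2BP3 group had the lowest mean of the 10 groups. The log2 fold change of STARD4 was -0.70 (SE 0.0743, 95% interval -0.85 to -0.56, edgeR's quasi-likelihood test with Benjamini-Hochberg adjustment over 11428 genes, adjusted p = 5.39e-11). All adjusted p-values that follow are from this test. Since this fall prompted the choice of genes, it describes STARD4 and is no independent evidence.

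The other members that fell were SREBF2, INSIG1, SQLE and SCD. SREBF2 was at 276.8, 276.2, 273.1 and 260.6 CPM with siControl and at 225.2, 227.0, 238.7 and 237.8 CPM with siIGF2BP3, with no overlap (log2 fold change -0.23, SE 0.0347, adjusted p = 3.24e-06). SQLE, the squalene epoxidase and a rate-limiting enzyme of the sterol arm, was at 126.3, 128.8, 129.7 and 126.4 CPM and then at 107.1, 117.1, 115.2 and 104.9 CPM. Every siIGF2BP3 library was below every siControl library (-0.20, SE 0.0378, adjusted p = 0.000228). SCD was at 399.8, 412.9, 418.9 and 426.6 CPM and then at 368.8, 366.0, 374.4 and 375.4 CPM, again without overlap (-0.16, SE 0.0321, adjusted p = 0.000793). INSIG1 was at 55.02, 49.5, 51.2 and 54.5 CPM with siControl and at 41.3, 46.7, 46.6 and 45.1 CPM with siIGF2BP3. Its groups did not overlap either (-0.22, SE 0.0553, adjusted p = 0.0116). The INSIG1 call was lost without siControl replicate 1 (adjusted p = 0.0656) or 4 (0.0595) or siIGF2BP3 replicate 1 (0.109). The siIGF2BP3 means of SREBF2, INSIG1 and SQLE, 232.2, 44.95 and 111.1 CPM, were still above the DMSO means of the line, 208.4, 34.15 and 105.1 CPM. For STARD4 every siIGF2BP3 library was below every DMSO library of the line. These are levels, and the differences from DMSO were not tested.

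In all, 5 of 31 members (16.1%) were called at an adjusted p under 0.05, against 2.34% of all genes tested (0.936% higher and 1.4% lower). Without STARD4 the count was 4 of 30 (13.3%). The median log2 fold change was -0.083 over the members and 0.002 over all genes, and 24 of 31 members were below 0. By role, the falls were in 2 of 5 regulators, 0 of 7 mevalonate genes, 1 of 12 genes of the squalene and sterol arm, 1 of 3 sterol transport genes and 1 of 4 tested fatty acid genes. The 4 members other than STARD4 fell by 10.5% to 14.6% of their control level, and STARD4 fell by 38.6%. ACLY (-0.10, adjusted p = 0.055), MSMO1 (-0.18, adjusted p = 0.118), FDFT1 (-0.13, adjusted p = 0.142) and FDPS (-0.11, adjusted p = 0.182) did not pass the test. NPC1 and NPC2, which pass cholesterol out of the lysosome, had log2 fold changes of -0.093 (95% interval -0.20 to 0.02) and -0.012 (-0.14 to 0.11).

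**Figure D1:**
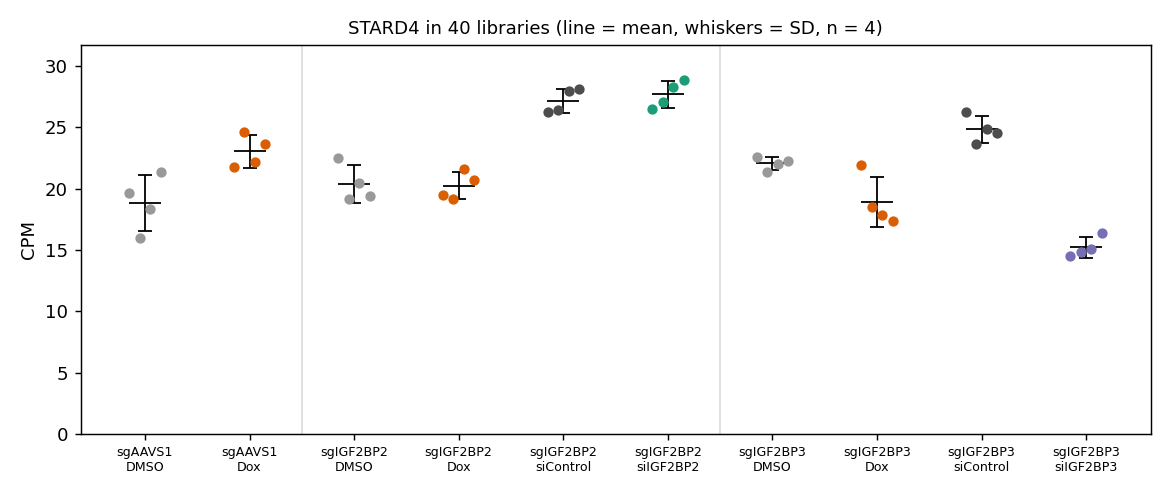
STARD4 in CPM (vertical axis, from 0) in the 4 libraries of each of the 10 groups, with points for libraries, a line for the mean and whiskers for the SD. The siIGF2BP3 libraries lie between 14.5 and 16.4 CPM, below the siControl libraries of the same line, while the siIGF2BP2 libraries overlap with their siControl.

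More members changed with siIGF2BP2 against siControl, in both directions, but STARD4 was not called. STARD4 was at 26.3, 26.4, 27.9 and 28.1 CPM with siControl and at 26.5, 27.1, 28.3 and 28.9 CPM with siIGF2BP2, which overlapped (log2 fold change 0.033, SE 0.0658, 95% interval -0.10 to 0.16, adjusted p = 0.734). INSIG1 had the largest change of the 31 members over the 11 comparisons. It was at 52.1, 53.2, 53.3 and 55.8 CPM with siControl and at 24.7, 24.6, 24.9 and 24.8 CPM with siIGF2BP2 (-1.11, SE 0.0592, adjusted p = 1.86e-25). The siIGF2BP2 libraries of INSIG1 were also below the DMSO libraries of the same line, at 34.4, 37.4, 32.9 and 35.02 CPM, which is a description of levels and was not tested. This did not hold for all members that fell. The siIGF2BP2 mean was below the DMSO mean for SQLE (97.46 and 105.7 CPM). It was above the DMSO mean for SREBF2 (221.4 and 204.3 CPM) and MSMO1 (37.37 and 35.34 CPM).

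MSMO1, the methylsterol monooxygenase of the sterol arm, was at 52.03, 53.8, 56.4 and 54.2 CPM with siControl and at 39.8, 36.6, 40.2 and 32.9 CPM with siIGF2BP2 (-0.54, SE 0.0608, adjusted p = 3.92e-11). SQLE was at 124.1, 128.3, 131.0 and 125.6 CPM and then at 98.2, 99.2, 93.3 and 99.1 CPM (-0.38, SE 0.0379, adjusted p = 3.31e-13). For both genes every siIGF2BP2 library was below every siControl library. SC5D, the lathosterol desaturase, fell from 28.9 ± 1.5 to 22.8 ± 0.783 CPM (mean ± SD, n = 4; -0.35, SE 0.0694, adjusted p = 3.84e-05). IDI1, which isomerizes isopentenyl diphosphate, fell from 65.6 ± 2.12 to 53.9 ± 2.42 CPM (-0.28, SE 0.0487, adjusted p = 2.99e-06). FDFT1, the squalene synthase, fell from 65.02 ± 2.45 to 54.8 ± 3.32 CPM (-0.24, SE 0.0461, adjusted p = 1.95e-05). The other falls were those of SREBF2 (-0.24), ACAT2 (-0.23), ACLY (-0.19), HMGCS1 (-0.18) and DHCR7 (-0.15). DHCR7 was lost without siControl replicate 4 (adjusted p = 0.0639) or siIGF2BP2 replicate 1 (0.144), and HMGCS1 without siControl replicate 1 (0.0674).

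The 5 members that rose with siIGF2BP2 came from 4 of the 5 roles. NPC2, the soluble cholesterol carrier of the lysosome, was at 43.3, 41.5, 43.3 and 46.9 CPM with siControl and at 57.4, 59.1, 65.97 and 55.9 CPM with siIGF2BP2 (0.45, SE 0.06, adjusted p = 6.83e-09). FADS2, the delta-6 desaturase, was at 37.6, 40.4, 38.9 and 39.6 CPM and then at 51.2, 48.2, 58.3 and 48.6 CPM (0.40, SE 0.0575, adjusted p = 4.51e-08). Neither gene's groups overlapped. The SREBP genes moved in opposite directions. SREBF1 rose from 168 ± 2.78 to 205 ± 6.03 CPM (0.28, SE 0.0372, adjusted p = 4.63e-09) and SREBF2 fell from 261 ± 13.7 to 221 ± 9.1 CPM (adjusted p = 7.94e-08). PMVK, the phosphomevalonate kinase, rose from 33.1 ± 2.53 to 39.03 ± 2.12 CPM (0.25, SE 0.0622, adjusted p = 0.0011), and SCAP rose from 162 ± 6.79 to 179 ± 4.52 CPM (0.15, SE 0.0404, adjusted p = 0.00259).

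With siIGF2BP2, 16 of 31 members (51.6%) were called, 5 higher and 11 lower, against 36.8% of all genes tested (18.4% higher and 18.4% lower). The medians of members and of all genes were -0.045 and 0.011. Of the 11 falls, 5 were among the 12 genes of the squalene and sterol arm, none of which rose, and 3 among the 7 mevalonate genes. Without siIGF2BP2 replicate 3, the library with the largest deviation, the counts were again 5 higher and 11 lower. Summed epithelial markers were at 189 to 226 CPM with siIGF2BP2 and at 227 to 230.0 CPM with siControl, and their part in these changes was not tested.

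SREBF2, INSIG1 and SQLE were lower with each siRNA. They are 3 of the 5 members called with siIGF2BP3 and 3 of the 16 called with siIGF2BP2, and these comparisons share no library. The share of all genes called with both siRNAs was not computed, so this overlap is a description. With siIGF2BP2 alone, 51.6% of members and 36.8% of all genes tested were called. The siRNA effects themselves were then compared, as siIGF2BP3 minus siIGF2BP2. Each pool was given to its own line only, so pool and line cannot be told apart in this comparison. This difference was called for 11 members (35.5%), 6 higher and 5 lower, against 18.7% of all genes tested (9.88% higher and 8.82% lower). Without STARD4 the count was 10 of 30 (33.3%). The STARD4 value, -0.74 (SE 0.0994, adjusted p = 2.5e-08), holds the fall with siIGF2BP3 that prompted the choice of genes, so it is a description. The difference was 0.89 for INSIG1 (SE 0.0813, adjusted p = 4.94e-14). It was also positive for MSMO1 (0.36, SE 0.0855, adjusted p = 0.00115), SC5D (0.29, adjusted p = 0.0324), IDI1 (0.19, adjusted p = 0.0477), ACAT2 (0.18, adjusted p = 0.0416) and SQLE (0.18, adjusted p = 0.0104). It was negative for NPC2 (-0.46, SE 0.087, adjusted p = 4.85e-05), SREBF1 (-0.36, SE 0.0532, adjusted p = 2.01e-07), FADS2 (-0.27, adjusted p = 0.0158) and FDPS (-0.18, adjusted p = 0.022). For SREBF2 the difference was 0.008 (95% interval -0.09 to 0.11, adjusted p = 0.936).

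The smaller differences between siRNAs depended on single libraries. Those of IDI1, ACAT2 and SC5D were lost without any one of 12, 10 and 9 of the 16 libraries, with adjusted p up to 0.113, 0.108 and 0.0823. FADS2 was lost without siIGF2BP2 replicate 3 (adjusted p = 0.0775). FDPS was lost without siIGF2BP2 replicate 3 (0.111), sgIGF2BP3 siControl replicate 3 (0.0532) or siIGF2BP3 replicate 1 (0.0628). With the replicate block IDI1 was lost as well (0.0506). With no filter on low counts, ACAT2 (0.0573) and IDI1 (0.0571) were lost.

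**Figure D2:**
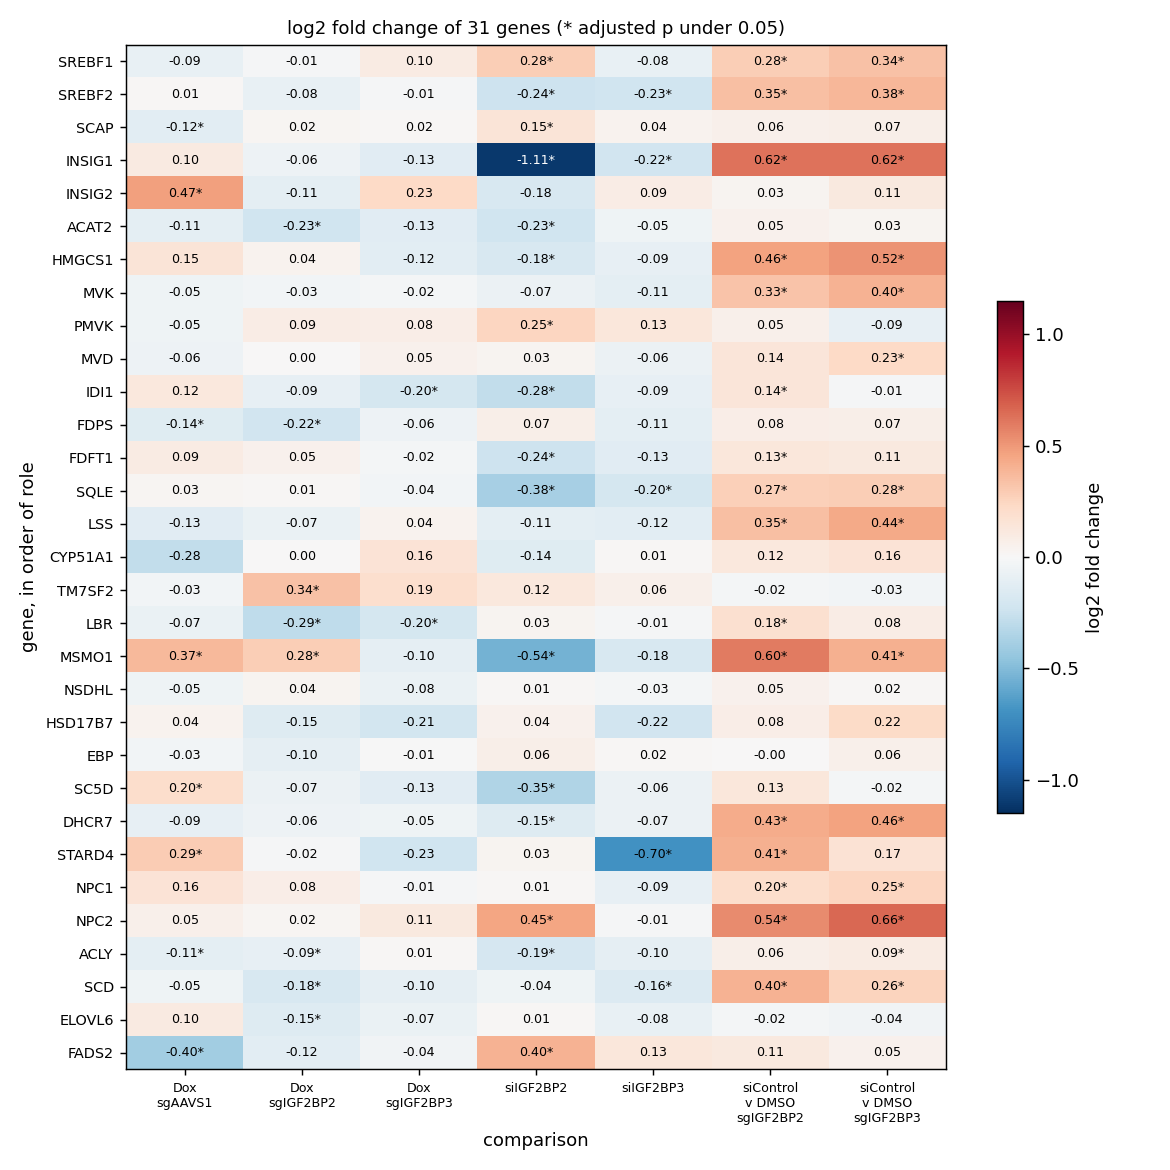
Log2 fold change of the 31 tested members (rows, by role) in 7 comparisons (columns), coloured from blue for lower to red for higher, with an asterisk where the adjusted p was under 0.05. The siIGF2BP3 column holds 5 asterisks, all on negative values, and both siControl columns hold asterisks on positive values alone.

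With Dox, the drug and the cutting by Cas9 cannot be told apart within a line, and the sgAAVS1 line gives the background. In that line STARD4 rose, from 19.6, 15.98, 18.4 and 21.4 CPM with DMSO to 21.8, 24.6, 22.2 and 23.6 CPM with Dox. The groups did not overlap (0.29, SE 0.0725, adjusted p = 0.00339), and the call was lost without DMSO replicate 2, the lowest library (adjusted p = 0.055). This rise is part of the Dox difference that entered the choice of genes, so it is a description of STARD4. MSMO1 rose from 36.9, 36.2, 32.3 and 38.3 CPM to 47.02, 46.6, 43.6 and 48.8 CPM, without overlap (0.37, SE 0.0628, adjusted p = 9.27e-06). INSIG2, the second INSIG protein, rose from 6.42 ± 1.53 to 8.91 ± 1.12 CPM, with overlap (0.47, SE 0.128, adjusted p = 0.00611). SC5D rose from 24.4 ± 0.934 to 28.1 ± 1.46 CPM (0.20, SE 0.0701, adjusted p = 0.0368).

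FADS2 fell in the sgAAVS1 line, from 37.2, 39.7, 38.1 and 36.5 CPM with DMSO to 29.4, 27.9, 29.5 and 28.03 CPM with Dox, without overlap (-0.40, SE 0.0635, adjusted p = 2.7e-06). FDPS (-0.14, SE 0.0414, adjusted p = 0.0146), SCAP (-0.12, SE 0.0413, adjusted p = 0.0308) and ACLY (-0.11, SE 0.0309, adjusted p = 0.0061) fell by less. In all, 8 of 31 members (25.8%) were called, 4 higher and 4 lower, against 15.9% of all genes tested (7.25% higher and 8.68% lower), with medians of -0.031 and 0.004. Leaving out STARD4 gave 7 of 30 (23.3%). Without DMSO replicate 2, 5 members were called, 1 higher and 4 lower, and besides STARD4 the calls of INSIG2 (adjusted p = 0.0531), SC5D (0.117) and SCAP (0.0955) were lost. SC5D was lost without 6 of the 8 libraries and SCAP without 5 (adjusted p up to 0.166), and FDPS without DMSO replicate 3 (0.0544). With an offset for GC content and exon length SC5D was lost as well (0.122).

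In the sgIGF2BP3 line, Dox lowered IDI1 and LBR, and STARD4 was not called. STARD4 was at 22.6, 21.4, 21.98 and 22.2 CPM with DMSO and at 21.9, 18.5, 17.9 and 17.3 CPM with Dox. Replicate 1 of Dox lay among the DMSO libraries and the other 3 lay below them all, and the log2 fold change was -0.23 (SE 0.0729, 95% interval -0.37 to -0.08, adjusted p = 0.0761). Without Dox replicate 1 it was called (adjusted p = 0.0182). IDI1 was at 64.7, 58.5, 61.1 and 61.4 CPM with DMSO and at 55.9, 54.7, 50.1 and 52.9 CPM with Dox (-0.20, SE 0.0496, adjusted p = 0.0125). LBR, a sterol reductase of the inner nuclear membrane, was at 62.3, 58.9, 59.9 and 58.96 CPM and then at 53.5, 51.4, 54.1 and 49.8 CPM (-0.20, SE 0.0554, adjusted p = 0.0289). Neither gene's groups overlapped.

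The 2 called members (6.45%) stand against 2.64% of all genes tested (1.64% higher and 1.01% lower), with medians of -0.035 and 0.003 for members and all genes. The count over all genes, 302, was 162 without DMSO replicate 3, 151 without DMSO replicate 4, 172 without Dox replicate 2 and 108 without Dox replicate 4. IDI1 was lost without DMSO replicate 1 (adjusted p = 0.0648), Dox replicate 3 (0.0631) or Dox replicate 4 (0.059). LBR was lost without DMSO replicate 1 (0.0888), 3 (0.067) or 4 (0.0541), or Dox replicate 2 (0.0755) or 4 (0.148), so that without Dox replicate 4 no member was called. LBR was also lost with an offset for GC content and exon length (0.082). None of the 5 members that fell with siIGF2BP3 was called with Dox in this line. The log2 fold changes there were -0.011 for SREBF2 (95% interval -0.08 to 0.06), -0.13 for INSIG1 (-0.25 to 0.00), -0.035 for SQLE (-0.11 to 0.04) and -0.10 for SCD (-0.17 to -0.04).

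In the sgIGF2BP2 line STARD4 was at 22.5, 19.1, 20.4 and 19.4 CPM with DMSO and at 19.5, 19.2, 21.6 and 20.7 CPM with Dox, which overlapped (-0.017, SE 0.0723, adjusted p = 0.9). Dox raised TM7SF2, a sterol reductase, from 33.1 ± 2.77 to 41.8 ± 2.79 CPM (0.34, SE 0.0654, adjusted p = 4.73e-05). It raised MSMO1 from 35.3 ± 1.94 to 43.05 ± 3.21 CPM (0.28, SE 0.0628, adjusted p = 0.000531). LBR fell from 56.9 ± 3.73 to 46.3 ± 2.2 CPM (-0.29, SE 0.0563, adjusted p = 7.61e-05). ACAT2, which joins acetyl-CoA units, fell from 67.5 ± 2.96 to 57.2 ± 3.82 CPM (-0.23, SE 0.0469, adjusted p = 0.000119). FDPS fell from 139 ± 1.23 to 119 ± 8.61 CPM (-0.22, SE 0.0415, adjusted p = 3.22e-05). SCD (-0.18, SE 0.0326, adjusted p = 2.19e-05), ELOVL6, a fatty acid elongase (-0.15, SE 0.0415, adjusted p = 0.00457), and ACLY (-0.09, SE 0.0307, adjusted p = 0.0273) fell by less.

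These 8 genes are 25.8% of the 31 members, against 20.4% of all genes tested (10% higher and 10.4% lower), with medians of -0.06 and 0.008 for members and all genes. ACLY was lost without DMSO replicate 1 (adjusted p = 0.0812) or 2 (0.0627), or Dox replicate 2 (0.0859) or 3 (0.0629). It was also lost with no filter on low counts (0.0527) or in a fit of only the groups compared (0.0877). INSIG1, which fell most with siIGF2BP2, was at 34.4, 37.4, 32.9 and 35.02 CPM with DMSO and at 34.2, 35.2, 27.9 and 34.7 CPM with Dox, and was not called (-0.061, adjusted p = 0.527). Of the 8 members called with Dox here and the 16 called with siIGF2BP2, 3 were called in both. ACAT2 and ACLY fell in both, while MSMO1 rose with Dox and fell with siIGF2BP2. The share of all genes called in both was not computed.

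**Figure D3:**
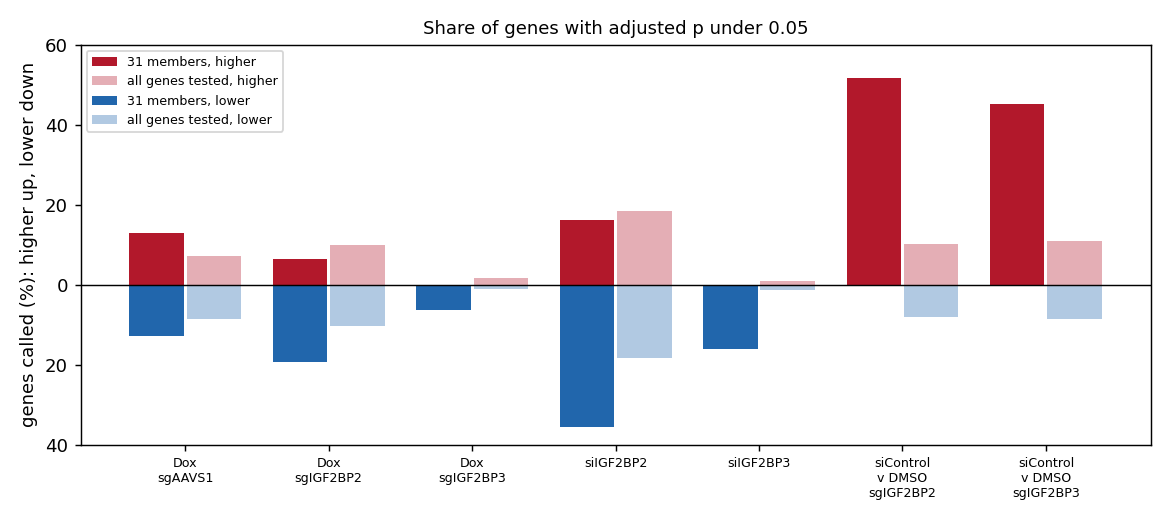
Share of genes with an adjusted p under 0.05 (vertical axis, percent), higher above the 0 line and lower below it, in 7 comparisons. Full-colour bars are the 31 tested members and pale bars all 11428 genes tested. With siControl against DMSO, 51.6% and 45.2% of members were higher and none was lower.

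The Dox effect in the sgIGF2BP3 line was then compared with that in the sgAAVS1 line, as the first minus the second. STARD4 differed by -0.51 on the log2 scale (SE 0.103, 95% interval -0.72 to -0.31, adjusted p = 0.000617). This difference is made of the rise of 0.29 in the sgAAVS1 line and the uncalled -0.23 in the sgIGF2BP3 line, and it also entered the choice of genes. Other members with a lower Dox effect in the sgIGF2BP3 line were MSMO1 (-0.47, SE 0.0897, adjusted p = 0.00029), SC5D (-0.34, SE 0.0992, adjusted p = 0.0243), IDI1 (-0.32, SE 0.0701, adjusted p = 0.00196), HMGCS1 (-0.27, SE 0.0898, adjusted p = 0.0492) and ELOVL6 (-0.18, SE 0.0584, adjusted p = 0.0466). FADS2 (0.36, SE 0.0883, adjusted p = 0.00602) and SREBF1 (0.18, SE 0.0551, adjusted p = 0.0266) had a higher one. For FADS2 the Dox effect was -0.40 in the sgAAVS1 line and -0.04 in the sgIGF2BP3 line. Of the 8, IDI1 alone was itself called with Dox in the sgIGF2BP3 line.

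These 8 are 25.8% of the 31 members, 2 higher and 6 lower, against 7.78% of all genes tested (4.53% higher and 3.25% lower), with medians of -0.022 and -0.001 for members and all genes. Over all genes 889 were called. Leaving out replicate 4 of the sgIGF2BP3 Dox group gave 428, and leaving out replicate 2 or 4 of the sgAAVS1 DMSO group gave 540 or 1415. Without STARD4 the called members are 7 of 30 (23.3%). With an offset for GC content and exon length, 3 were called, STARD4, MSMO1 and IDI1, all lower. These 3 and FADS2 were called whichever library was left out. HMGCS1, ELOVL6, SC5D and SREBF1 were lost without 11, 10, 6 and 4 of the 16 libraries, with adjusted p up to 0.209, 0.149, 0.145 and 0.0868. The count was 4 without sgAAVS1 DMSO replicate 2, sgAAVS1 Dox replicate 1 or sgIGF2BP3 Dox replicate 4, and 5 without sgAAVS1 Dox replicate 4 or sgIGF2BP3 DMSO replicate 3 or 4. Of these 8, siIGF2BP3 also lowered STARD4, which was chosen for being lower in both, and 0 of the other 7 were called with it.

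**Figure D4:**
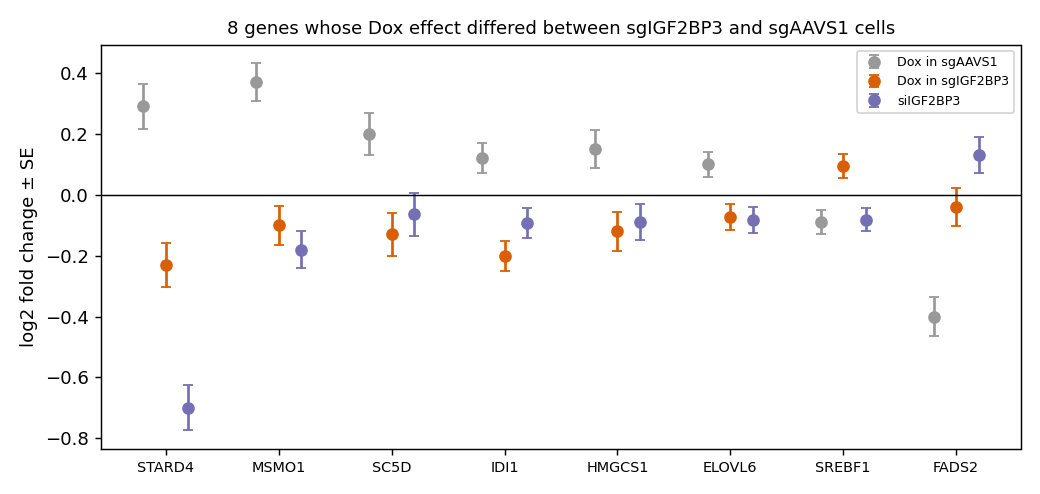
Log2 fold change ± SE (vertical axis) with Dox in the sgAAVS1 line, with Dox in the sgIGF2BP3 line and with siIGF2BP3, for the 8 members whose Dox effect differed between these lines. For STARD4 the points lie at 0.29, -0.23 and -0.70, and for FADS2 the sgAAVS1 point lies at -0.40.

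Between the sgIGF2BP2 and sgAAVS1 lines the Dox effect differed for 4 members (12.9%), 2 higher and 2 lower, against 6.97% of all genes tested (4.01% higher and 2.97% lower). TM7SF2 (0.37, SE 0.0935, adjusted p = 0.00671) and FADS2 (0.28, SE 0.0889, adjusted p = 0.0448) were higher, and INSIG2 (-0.58, SE 0.179, adjusted p = 0.0344) and ELOVL6 (-0.26, SE 0.0585, adjusted p = 0.00257) were lower. STARD4 differed by -0.30 (SE 0.102, 95% interval -0.51 to -0.10, adjusted p = 0.0565), which passed the threshold with DESeq2 (0.0453) and without sgAAVS1 DMSO replicate 4 (0.013) or sgIGF2BP2 DMSO replicate 2 (0.0416). The STARD4 value uses the sgAAVS1 libraries that entered the choice of genes, so it is a description. FADS2 and INSIG2 were lost without 11 and 9 of the 16 libraries, with adjusted p up to 0.134 and 0.11. With the offset for GC content and exon length, TM7SF2 (adjusted p = 0.0513), FADS2 (0.161) and INSIG2 (0.0856) were lost. In a fit of only the groups compared, FADS2 (0.0596) and INSIG2 (0.0583) were lost. The count was 9 without sgAAVS1 DMSO replicate 4. It was 2 without sgAAVS1 DMSO replicate 2 or 3, sgAAVS1 Dox replicate 1 or 2, sgIGF2BP2 DMSO replicate 1 or 3, or sgIGF2BP2 Dox replicate 1.

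Between the sgIGF2BP3 and sgIGF2BP2 lines MSMO1 was the 1 member whose Dox effect differed, which is 3.23% against 2.91% of all genes tested (1.69% higher and 1.23% lower). It differed by -0.38 (SE 0.0897, adjusted p = 0.00686). STARD4 differed there by -0.21 (SE 0.103, 95% interval -0.41 to 0.00, adjusted p = 0.317). The 3 comparisons of Dox effects share libraries of each line, so they are given side by side.

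In cells that received siControl, 16 of the 31 tested members (51.6%) were higher than with DMSO in the sgIGF2BP2 line and 14 (45.2%) in the sgIGF2BP3 line, against 10.2% and 10.9% of all genes tested, and none was lower. This comparison sets transfection with a non-targeting siRNA for 48 hours against the solvent, and these parts cannot be told apart. It shares its siControl libraries with the siRNA effects and its DMSO libraries with the Dox effects. INSIG1 was at 34.4, 37.4, 32.9 and 35.02 CPM with DMSO and at 52.1, 53.2, 53.3 and 55.8 CPM with siControl in the sgIGF2BP2 line (0.62, SE 0.0556, adjusted p = 2.34e-14). In the sgIGF2BP3 line it was at 36.5, 32.9, 34.6 and 32.6 CPM and then at 55.02, 49.5, 51.2 and 54.5 CPM (0.62, SE 0.0567, adjusted p = 6.29e-14). NPC2 rose from 30.2 ± 2.52 to 43.7 ± 2.25 CPM in the sgIGF2BP2 line (0.54, SE 0.0645, adjusted p = 6.45e-10) and from 28.1 ± 1.74 to 44.4 ± 2.85 CPM in the sgIGF2BP3 line (0.66, SE 0.0662, adjusted p = 1.79e-12). MSMO1 rose from 35.3 ± 1.94 to 54.1 ± 1.81 CPM (0.60, SE 0.0602, adjusted p = 1.71e-12) and from 39.05 ± 1.74 to 51.9 ± 2.09 CPM (0.41, SE 0.0609, adjusted p = 2.33e-07). For these 3 genes the groups overlapped in neither line.

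HMGCS1, which makes HMG-CoA for the mevalonate arm, rose by 0.46 (adjusted p = 5.48e-09) and 0.52 (adjusted p = 1.94e-10) on the log2 scale in the sgIGF2BP2 and sgIGF2BP3 lines. DHCR7, the 7-dehydrocholesterol reductase, rose by 0.43 (adjusted p = 3.26e-09) and 0.46 (adjusted p = 5.41e-10). In the same order, SREBF2 rose by 0.35 and 0.38 and SREBF1 by 0.28 and 0.34. LSS, the lanosterol synthase, rose by 0.35 and 0.44, and MVK, the mevalonate kinase, by 0.33 and 0.40. SCD rose by 0.40 and 0.26, SQLE by 0.27 and 0.28 and NPC1 by 0.20 and 0.25. STARD4 rose in the sgIGF2BP2 line from 20.4 ± 1.53 to 27.2 ± 0.972 CPM (0.41, SE 0.0678, adjusted p = 3.34e-06). In the sgIGF2BP3 line it was not called, with means of 22.1 ± 0.52 CPM for DMSO and 24.8 ± 1.11 CPM for siControl (0.17, SE 0.0696, adjusted p = 0.0836). With the offset for GC content and exon length it was called (adjusted p = 0.00512). The remaining calls were LBR (0.18), IDI1 (0.14) and FDFT1 (0.13) in the sgIGF2BP2 line and MVD (0.23) and ACLY (0.09) in the sgIGF2BP3 line.

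In the sgIGF2BP2 line 16 of 31 members (51.6%) were called, all higher, against 18.4% of all genes tested (10.2% higher and 8.16% lower). In the sgIGF2BP3 line 14 (45.2%) were called, all higher, against 19.4% of all genes tested (10.9% higher and 8.54% lower). The medians of members and of all genes were 0.137 and -0.002 in the first line and 0.163 and -0.004 in the second, and 28 and 26 of 31 members were above 0. The lines share no library here, and 12 members were called in both, which is 12 of 16 and 12 of 14. The share of all genes called in both lines was not computed, so this overlap is a description. FDFT1 was lost without 5 of the 8 libraries (adjusted p up to 0.136), IDI1 without 5 (0.134), LBR without 3 (0.0804), and ACLY in the sgIGF2BP3 line without 3 (0.097). FDFT1 was also lost with no filter on low counts (0.0746) or only the groups compared (0.0525). ACLY was also lost with no filter on low counts (0.0796) or the offset for GC content and exon length (0.0796). Called in neither line were FDPS, PMVK, SCAP, NSDHL, ACAT2, ELOVL6, EBP, TM7SF2, SC5D, FADS2, INSIG2, CYP51A1 and HSD17B7.

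**Figure D5:**
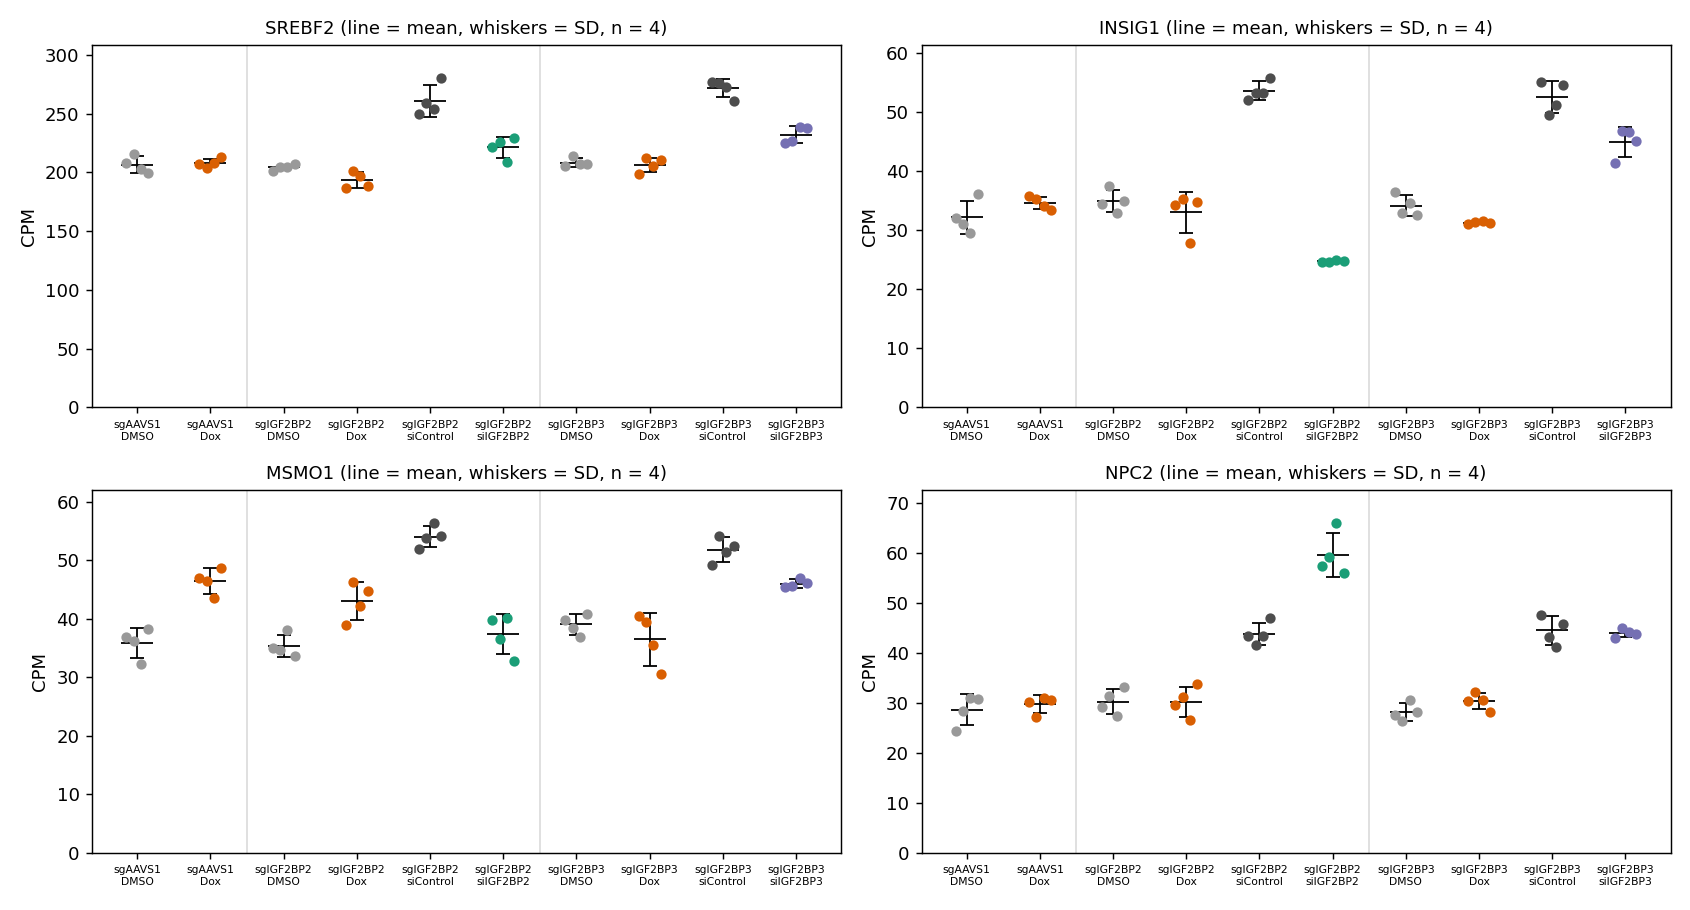
SREBF2, INSIG1, MSMO1 and NPC2 in CPM (vertical axes, each from 0) in the 4 libraries of each of the 10 groups, with points for libraries, a line for the mean and whiskers for the SD. Both siControl groups lie above the DMSO groups of the sgIGF2BP2 and sgIGF2BP3 lines for each gene. With siIGF2BP2 INSIG1 lies at 24.6 to 24.9 CPM and NPC2 at 55.9 to 65.97 CPM.

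In none of the 11 comparisons were CYP51A1, the lanosterol demethylase, NSDHL and HSD17B7, which act with MSMO1 in removing methyl groups, or EBP, the sterol isomerase, called. Their medians over the libraries were 6.62, 41.2, 8.09 and 33.97 CPM, in that order. MSMO1 was called in 8 comparisons, more than any other member, and SREBF1, INSIG1, IDI1, SQLE, STARD4 and FADS2 were called in 5 each.

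Another 52 genes of the pathway, listed apart from the members, were examined, and 46 of them were tested. With siIGF2BP3, 4 were lower and none higher (8.7% called, against 2.34% of all genes tested and 1.4% lower). All 4 belong to the 12 genes of SREBP processing and sterol-regulated degradation. They were ERLIN2 (-0.23, adjusted p = 0.000776), which takes part in degradation at the endoplasmic reticulum, PAQR3 (-0.23, adjusted p = 0.0291), which holds SCAP at the Golgi, RNF145 (-0.17, adjusted p = 0.0105), a ubiquitin ligase, and FAF2 (-0.17, adjusted p = 0.0176). Of the 17 tested genes that are other SREBP targets or make lipids, FASN among them, 0 were called. With siIGF2BP2, 6 of the 46 were higher and 13 lower (41.3% called, against 36.8% of all genes tested). ERLIN2 fell most, from 58.1 ± 1.35 to 32.2 ± 1.7 CPM (-0.85, adjusted p = 5.05e-24). NUS1 (-0.58, adjusted p = 6e-15), MBTPS2, the site-2 protease that releases SREBPs (-0.49, adjusted p = 0.000134), and SPRING1, which acts with the site-1 protease (-0.41, adjusted p = 3.79e-11), came next.

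With Dox, 4 of the 46 were higher and 3 lower in the sgAAVS1 line (15.2% called, against 15.9% of all genes tested). The counts were 4 and 7 in the sgIGF2BP2 line (23.9%, against 20.4%), and 0 and 3 in the sgIGF2BP3 line (6.52%, against 2.64%). LPIN1, a phosphatidate phosphatase, fell by 0.37, 0.41 and 0.28 on the log2 scale in these 3 lines. FASN, the fatty acid synthase, fell in the sgAAVS1 line from 994 ± 49.9 to 730.5 ± 24.6 CPM (-0.44, adjusted p = 7.16e-15). FASN lies on the long arm of chromosome 17 beyond SPOP, where 251 tested genes had a median log2 fold change of -0.175 with Dox in that line, 0.021 in the sgIGF2BP2 line and 0.012 in the sgIGF2BP3 line. No member lies there, and the part of that region in the FASN value was not tested.

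With siControl against DMSO, 15 of the 46 were higher in the sgIGF2BP2 line (32.6%, against 10.2% of all genes tested higher) and 13 in the sgIGF2BP3 line (28.3%, against 10.9%), and none was lower. In the same order, NR1H2, which encodes a sterol receptor of the LXR kind, rose by 0.38 and 0.46, and MYLIP, a ubiquitin ligase and LXR target, by 0.42 and 0.36 on the log2 scale.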

How the data were processed

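In 40 libraries, poly(A) RNA of RKO cells was sequenced. The table deposited by the authors holds raw counts, as whole numbers, for each gene and library. The submitters' processing notes name bcl2fastq 2.20.0.422, STAR 2.7.5c and hg38. The counting tool, annotation and strand setting are not given in the sources used here.

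Gene names, positions and exon lengths came from GENCODE release 29. Of the rows, 11428 passed edgeR's filterByExpr and hold 99.98% of counts. TMM factors were 0.978 to 1.03. edgeR's quasi-likelihood test (edgeR 4.0.16, R 4.3.3) was fitted on all 40 libraries with 1 coefficient per group, in 11 contrasts, with Benjamini-Hochberg adjustment in each. A gene was called at an adjusted p under 0.05. SE is the size of the log2 fold change over the square root of F. CPM uses TMM-scaled totals. The code was checked on counts simulated under the model of the fit, which does not test whether that model holds for these wells. Libraries of a group are wells of 1 line, so p-values measure the spread between wells, which may be technical.

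Members and lists were chosen with earlier results of these data known. STARD4 and up to 6 called members per direction, by size, are given in full in each contrast, and up to 4 called genes of the other lists. A few uncalled members were named after their values were seen. Some genes of the other lists are counted but not reported here by name. Alternatives were DESeq2 1.42.0, RLE factors, no filter, only the groups compared, a replicate block, each library left out, and an offset for GC content and length.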

Additional observations from a re-analysis of the deposited data

Results flagged for a closer look

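In 310 sets of 4 libraries (31 genes in 10 groups), 14 had 1 library far from the other 3, by Dixon's test of the gap against the range. Chance flags about 1 in 20 sets. In CPM, the libraries that stood high were SREBF1 in sgAAVS1 Dox replicate 2 (140.1), CYP51A1 in sgIGF2BP3 DMSO replicate 2 (7.6), SCD in sgIGF2BP2 DMSO replicate 4 (358) and SCD in siIGF2BP2 replicate 4 (462). Those that stood low were SREBF1 in siIGF2BP2 replicate 3 (196), INSIG1 in sgIGF2BP2 Dox replicate 3 (27.9), ACAT2 in sgIGF2BP2 Dox replicate 1 (51.5), PMVK in sgIGF2BP2 siControl replicate 1 (29.3) and IDI1 in sgAAVS1 DMSO replicate 2 (51.4), and FDPS in sgAAVS1 DMSO replicate 4 (130.5), HSD17B7 in sgIGF2BP3 Dox replicate 3 (6.73), SC5D in siIGF2BP3 replicate 4 (22.4), SCD in sgIGF2BP3 DMSO replicate 1 (332) and FADS2 in sgIGF2BP2 Dox replicate 2 (30.4).

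In 24 cases an effect differed between lines or siRNAs by the test of the difference itself (edgeR, adjusted p under 0.05), on the log2 scale. For Dox in the sgIGF2BP3 line minus the sgAAVS1 line these were -0.18 for ELOVL6, -0.47 for MSMO1, -0.27 for HMGCS1, -0.51 for STARD4, -0.32 for IDI1, 0.36 for FADS2, -0.34 for SC5D and 0.18 for SREBF1. For the sgIGF2BP2 line minus the sgAAVS1 line they were -0.58 for INSIG2, -0.26 for ELOVL6, 0.28 for FADS2 and 0.37 for TM7SF2, and for the sgIGF2BP3 line minus the sgIGF2BP2 line -0.38 for MSMO1. For siIGF2BP3 minus siIGF2BP2 they were -0.18 for FDPS, 0.36 for MSMO1, -0.74 for STARD4, 0.18 for ACAT2, 0.89 for INSIG1, 0.18 for SQLE, 0.19 for IDI1, -0.27 for FADS2, 0.29 for SC5D, -0.46 for NPC2 and -0.36 for SREBF1.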

How the results depend on the processing

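Of 93 called results of members, 65 kept direction and call under every alternative run, 28 lost the call in at least 1, and 0 reversed; of 1493 values under alternatives, 155 had lost the call. STARD4 ranged from -0.74 to -0.68 with siIGF2BP3 and from -0.58 to -0.33 in the Dox difference between the sgIGF2BP3 and sgAAVS1 lines (adjusted p up to 0.031). For the sgIGF2BP2 minus sgAAVS1 difference, a fit of only the groups compared called 2 members against 4. For sgIGF2BP3 minus sgAAVS1, the offset for GC content and length, chosen after seeing the data, called 3 against 8. The causes were not tested.

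With each library left out in turn, members called with Dox ranged from 5 to 10 in the sgAAVS1 line, 7 to 8 in the sgIGF2BP2 line and 0 to 3 in the sgIGF2BP3 line (0 without Dox replicate 4, and 1 without DMSO replicate 1, 3 or 4 or Dox replicate 2 or 3). They ranged from 15 to 17 for siIGF2BP2, 4 to 5 for siIGF2BP3, 8 to 12 for their difference, 2 to 9 for sgIGF2BP2 minus sgAAVS1, 4 to 10 for sgIGF2BP3 minus sgAAVS1 and 1 to 1 for sgIGF2BP3 minus sgIGF2BP2, and for siControl against DMSO 13 to 16 and 13 to 14 in the sgIGF2BP2 and sgIGF2BP3 lines.

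Over all genes, only the groups compared gave 477 called genes against 302 for Dox in the sgIGF2BP3 line and 465 against 267 for siIGF2BP3. The offset gave 467 for siIGF2BP3, 391 against 889 for sgIGF2BP3 minus sgAAVS1 and 641 against 333 for sgIGF2BP3 minus sgIGF2BP2. It moved the higher and lower genes from 1143 and 1183 to 978 and 1982 for Dox in the sgIGF2BP2 line, from 187 and 115 to 128 and 222 in the sgIGF2BP3 line, from 458 and 339 to 307 and 395 for sgIGF2BP2 minus sgAAVS1 (members from 2 and 2 to 0 and 3), and from 1168 and 933 to 1181 and 1302 for siControl against DMSO in the sgIGF2BP2 line.

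Deviations of same-numbered libraries correlated from -0.0896 to 0.0924. Every library correlated best with its own number only for siControl against DMSO in the sgIGF2BP2 line (0.0437 to 0.0924). For siControl against DMSO in the sgIGF2BP3 line, replicates 1 and 4 did so (0.0799 and 0.0438). Libraries of the same number may thus share more than the number in these comparisons, and the cause was not tested. A fit with the replicate block called 9, 8 and 3 members with Dox in the sgAAVS1, sgIGF2BP2 and sgIGF2BP3 lines, 16 with siIGF2BP2 and 6 with siIGF2BP3, against 8, 8, 2, 16 and 5. For siControl against DMSO, every member called in either line kept its call with the block.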
